A study of Homo sapiens with 6 samples.

Results

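TMEM216, OR2T1 and CCDC200 are 3 protein-coding genes, of 19866 on the numbered chromosomes, X and Y in the RefSeq table of GRCh38, that were picked because ENO1, H4K12la and HDAC1 all had a strong peak beside them. Peaks of all 6 libraries lay within 1 kb of an annotated gene end at 6 of the 19866 genes (0.0302%), and the 3 were chosen by their fold enrichment, the lowest over the libraries being higher there than at the other 3 genes. Fold enrichments and presence of a peak are therefore described below and not tested. The libraries came from HepG2, an established line of human hepatocellular carcinoma cells, and were made by CUT&Tag, in which an antibody brings a transposase to its target so that the DNA around it is cut and tagged. The 3 targets were ENO1, HDAC1 and H4K12la, with 2 replicate libraries each. The labels name no treatment for any library, and since no label states that the paired libraries were grown separately, their spread may be technical. Control libraries were not analysed here, so these data give no level of signal without a target.

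ENO1 (enolase) is an enzyme of glycolysis, the pathway that leads to lactate. H4K12la is histone H4 carrying a lactyl group, derived from lactate, on lysine 12, and HDAC1 is a histone deacetylase, of a class of enzymes known to take off lactyl groups as well. TMEM216 encodes a membrane protein of the transition zone at the base of the primary cilium, where it takes part in deciding which proteins enter the cilium, and its loss causes ciliopathies. OR2T1 encodes an odorant receptor, one of a cluster of olfactory receptor genes on chromosome 1 that serve in sensory neurons. CCDC200 encodes a coiled-coil protein and lies beside RNU2-1, a gene of U2, the small nuclear RNA (snRNA) that recognises the branch point in splicing.

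The annotated starts of the 3 genes differ in sequence, and no peak of any library overlapped the promoter window at any of them. They are shown because they mark where each gene starts relative to its peaks, and because a reader would look for the peak there. CCDC200 has a second RefSeq promoter window inside the gene (43228574 to 43228873), not shown. It lay 2876 bp from the main peaks, and none of these overlapped it. Each window runs from 250 bases before the start to 50 after it, from RefSeq (GRCh38.p14), written 5′ to 3′ on the gene's own strand. Capitals mark matches on either strand to GGGCGG, known as the GC box, to CCAAT, to the TATA box spelled TATAAA, to the octamer ATTTGCAT, or to GTTGCC, and positions count from 1 at the 5′ end.
TMEM216 at chr11:61392337-61392636, plus strand: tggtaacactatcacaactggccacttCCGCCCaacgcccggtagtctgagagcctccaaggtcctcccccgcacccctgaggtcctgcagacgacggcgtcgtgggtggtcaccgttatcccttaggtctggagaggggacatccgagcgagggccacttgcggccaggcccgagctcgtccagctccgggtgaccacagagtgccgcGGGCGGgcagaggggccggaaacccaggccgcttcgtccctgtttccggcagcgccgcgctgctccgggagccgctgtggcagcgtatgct
OR2T1 at chr1:248402798-248403097, plus strand: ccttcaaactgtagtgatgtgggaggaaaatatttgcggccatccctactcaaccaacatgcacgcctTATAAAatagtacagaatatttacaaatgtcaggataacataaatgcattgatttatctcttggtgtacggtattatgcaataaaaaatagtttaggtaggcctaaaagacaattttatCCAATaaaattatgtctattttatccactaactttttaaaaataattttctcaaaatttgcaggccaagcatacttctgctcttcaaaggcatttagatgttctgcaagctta
CCDC200 at chr17:43231220-43231519, minus strand: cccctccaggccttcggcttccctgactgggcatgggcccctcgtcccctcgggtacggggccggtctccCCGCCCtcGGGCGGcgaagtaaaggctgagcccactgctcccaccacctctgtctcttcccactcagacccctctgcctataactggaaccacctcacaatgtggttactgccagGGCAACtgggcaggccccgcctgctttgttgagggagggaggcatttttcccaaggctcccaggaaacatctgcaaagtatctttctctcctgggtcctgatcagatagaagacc

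The TMEM216 and CCDC200 windows held more G and C than the OR2T1 window. G and C made up 68% of the TMEM216 window, 61.3% of the CCDC200 window and 32.7% of the OR2T1 window, against a median of 58.7% over 35116 RefSeq promoter windows, whose middle quartiles ran from 47% to 68%. The dinucleotide CG occurred 28 times at TMEM216, 10 times at CCDC200 and 3 times at OR2T1, against a median of 14 over all windows. GGGCGG or its reverse complement stood at bases 28 to 33 and 210 to 215 of the TMEM216 window and at bases 71 to 76 and 79 to 84 of the CCDC200 window. It is common, being held by 45.0% of all windows. OR2T1 had TATAAA at bases 69 to 74 (held by 11.5% of windows) and CCAAT at bases 188 to 192 (34.6%). CCDC200 had the reverse complement of GTTGCC at bases 186 to 191 (12.2%). None of the 3 windows held ATTTGCAT, which 1.77% of windows did. These matches are letters in a window and not sites of binding.

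Each gene had 1 main peak, and it lay outside the gene in all 6 libraries. At TMEM216 (chromosome 11, 61392587 to 61398846, plus strand) it lay upstream of the start, in the direction of TMEM138, with 595 to 663 bp between peak and gene. At OR2T1 (chromosome 1, 248403048 to 248408020, plus strand) it lay downstream of the gene's 3′ end, with a gap of 68 to 174 bp, and 4991 bp from the promoter window. At CCDC200 (chromosome 17, 43221417 to 43231269, minus strand) it lay upstream of the start, with a gap of 480 to 552 bp, between the gene and RNU2-1. A peak near a gene end was thus a peak before the start for TMEM216 and CCDC200 and a peak past the end for OR2T1. All positions are on GRCh38 (hg38) and count from 1, and a summit is the base at which the peak caller placed the highest signal.

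**Figure D1:**
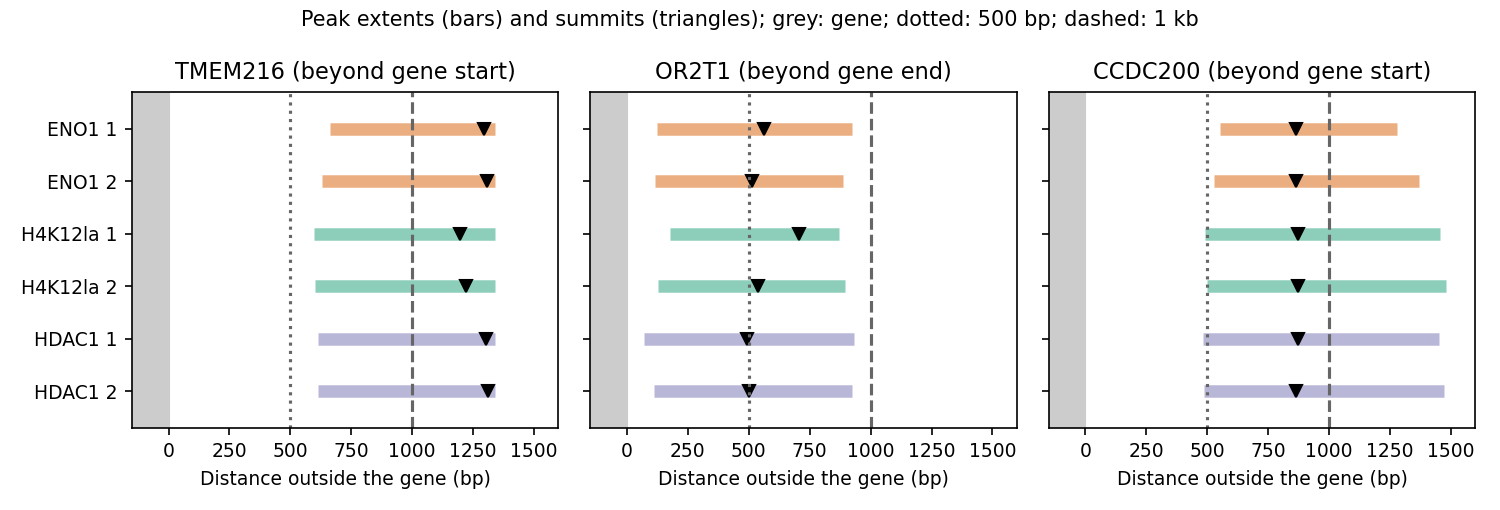
Extent (bars) and summit (triangles) of the main peak of each library, by distance outside the annotated gene in bp, with the gene in grey, 500 bp dotted and 1 kb dashed. At TMEM216 all summits lie beyond 1 kb and all bars stop at the same outer base, at OR2T1 the H4K12la replicate 1 summit lies apart, and at CCDC200 the 6 summits fall within 7 bp.

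The TMEM216 peak was among the strongest of 5 of the 6 lists. Fold enrichment, the signal at the summit over the peak caller's background in the same library, was 9.72 and 23.1 in ENO1 replicates 1 and 2. It was 20.7 and 21.5 for H4K12la and 23.9 and 25.7 for HDAC1. ENO1 replicate 1 was low and the other 5 libraries lay close together. The peak was 261st of 1818 by fold in ENO1 replicate 1 and 5th of 1395 in replicate 2. It was 8th in both H4K12la lists, of 5652 and 7773 peaks, and 9th in both HDAC1 lists, of 5979 and 4802 peaks. The -log10 q, the caller's measure of confidence, which also grows with sequencing depth, was 20.1 and 179 in the ENO1 libraries, 296 and 306 in the H4K12la libraries, and 239 and 238 in the HDAC1 libraries. The ENO1 mean of 16.4 ± 9.49-fold (SD, n = 2) thus rests on libraries that did not agree, while H4K12la had 21.1 ± 0.517 and HDAC1 24.8 ± 1.26 (SD, n = 2 each).

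Replicate lists of ENO1 often ranked a place differently, and the gap at TMEM216 was matched at many other places. The share of the list below the peak was 85.6% in ENO1 replicate 1 and 99.6% in replicate 2, a difference of 14.0 percentage points. Of the 428 merged regions in which all 6 libraries had a peak, 108 (25.2%) showed an ENO1 difference at least as large, and the median was 6.14 points. These regions were taken anywhere on the chromosomes and were not limited to gene ends. That share covers regions of all strengths. TMEM216 was 59th by mean percentile over the 6 libraries. Every region ranked above it had percentiles of at least 93.8 in all 6 lists. That mean includes the ENO1 lists, so a region with such a gap could hardly rank higher. The ranking therefore cannot show whether such gaps are rare at strong places. The H4K12la and HDAC1 replicates differed by 0.0386 and 0.0369 points at TMEM216.

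**Figure D2:**
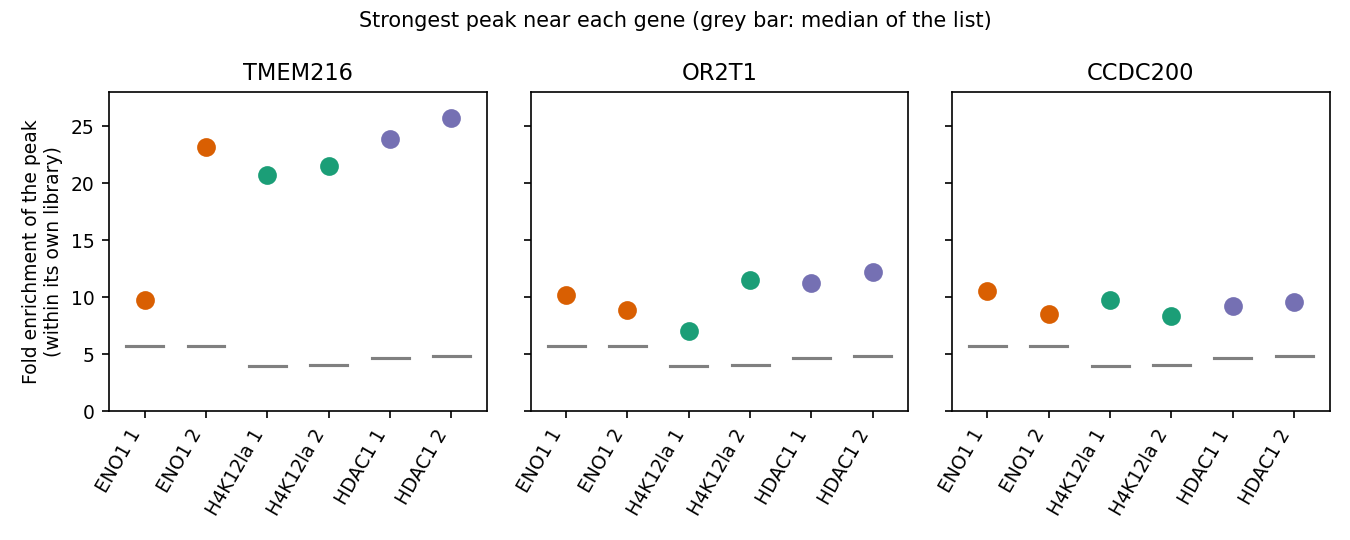
Fold enrichment of the main peak beside each gene in each library (points, coloured by target), with the median of that library's list as a grey bar. TMEM216 lies above 20-fold in every library but ENO1 replicate 1 (9.72), and OR2T1 and CCDC200 lie between 7.02 and 12.2 in all 6.

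Every library's TMEM216 peak began at the same base, 61391246, and the ends ran from 61391923 to 61391991. The ENO1 peaks were 678 and 711 bp wide, the H4K12la peaks 746 and 740 bp, and the HDAC1 peaks 728 and 730 bp. This outer edge faces away from the gene. A start shared by all 6 lists was found in 9 of the 428 regions (2.10%). Of the other 8, 1 lay within a gene, LRRC27 on chromosome 10. The other 7 lay 195155 to 1825896 bp from the nearest protein-coding gene. These 8 had mean folds of 5.79 to 29.2.

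Summits at TMEM216 fell into 2 places, and H4K12la was the target apart. The ENO1 summits were at 61391294 and 61391281 and the HDAC1 summits at 61391286 and 61391274, 28 to 48 bp from the shared outer edge. The H4K12la summits were at 61391391 and 61391367, 145 and 121 bp from that edge and nearer the gene. ENO1 and HDAC1 summits were 5 to 20 bp apart, whereas H4K12la lay 73 to 110 bp from ENO1 and 81 to 117 bp from HDAC1. Replicates of 1 target were 12 to 24 bp apart, so the shift of H4K12la was larger than the spread between replicates, with no overlap between the H4K12la summits and the other 4. Among the 428 regions, both H4K12la summits lay outside the range of the other 4 in 59 (13.8%), and by at least 73 bp in 6 (1.40%). For ENO1 the same gap of 73 bp was seen in 6 regions (1.40%) and for HDAC1 in 4 (0.935%). A summit within 50 bp of a peak edge, as ENO1 and HDAC1 had here, occurred in 5.30% to 9.81% of the peaks of a list.

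With summits 1196 to 1313 bp from the annotated start, TMEM216 counted as a gene with a gene-end peak because the inner flank of the peak reached into the 1 kb window. Requiring the summit within 1 kb, a setting chosen after the data were seen, took TMEM216 off the list in all 6 libraries, and a 500 bp window did so too. No other peak lay within 10 kb of TMEM216, and the nearest beyond was a weak one of H4K12la replicate 2 (61429695 to 61430447, 3.64-fold) over the adjoining ends of CPSF7 and SDHAF2, 37.5 kb from the TMEM216 start. OR2T1 kept all 6 libraries under both of those settings. CCDC200 kept all 6 by its summits but only the 4 H4K12la and HDAC1 libraries within 500 bp, since its ENO1 peaks stopped 552 and 526 bp from the gene.

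OR2T1 had a peak of moderate height in every list, with H4K12la the most variable target. Fold was 10.2 and 8.85 in ENO1 replicates 1 and 2, 7.02 and 11.5 in those of H4K12la, and 11.2 and 12.2 in those of HDAC1. The peak ranked 238th and 249th in the ENO1 lists, 340th and 112th in the H4K12la lists and 190th and 175th in the HDAC1 lists. H4K12la replicate 1 was the lowest and HDAC1 replicate 2 the highest, and H4K12la replicate 2 lay between the HDAC1 values. The ENO1 peaks had a -log10 q of 33.4 and 30.9, the H4K12la peaks 11.5 and 31.3, and the HDAC1 peaks 63.1 and 53.7, so by this measure both HDAC1 libraries lay above the other 4. ENO1 averaged 9.52 ± 0.950-fold, H4K12la 9.28 ± 3.19 and HDAC1 11.7 ± 0.678 (SD, n = 2 each).

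Summits at OR2T1 lay within 67 bp of each other in 5 libraries, and that of H4K12la replicate 1 lay farther off. ENO1 had them at 248408581 and 248408532, H4K12la at 248408727 and 248408559, and HDAC1 at 248408514 and 248408521, which is 494 to 707 bp past the gene. The span over all 6 was 213 bp, and 67 bp without H4K12la replicate 1, which also had the lowest fold there. The HDAC1 summits were 7 bp apart and both lay nearer the gene than the other 4, the closest of which, ENO1 replicate 2, was 11 bp from them. Both HDAC1 summits lay outside the range of the other 4 in 46 of the 428 regions (10.7%). The ENO1 summits were 49 bp apart and the H4K12la summits 168 bp, and these 2 targets overlapped. The peaks themselves lay over one another, with 698 bp common to all 6 and widths of 698 to 862 bp. Their bounds were 248408142 to 248408945 and 248408137 to 248408906 for ENO1, and 248408195 to 248408892 and 248408149 to 248408914 for H4K12la. For HDAC1 they were 248408089 to 248408950 and 248408132 to 248408945.

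Beyond 10 kb, OR2T1 had a neighbour with ENO1 alone. A region inside OR2T6, the next olfactory receptor gene (chromosome 1, 248383879 to 248384431), 18.7 kb before the OR2T1 start, held ENO1 peaks of 5.34-fold and 4.06-fold and no peak of the other 4 libraries, which does not show that signal was absent there. These ENO1 peaks were weakly supported, with a -log10 q of 4.08 and 2.09, the latter the lowest in its list. Among the 15 OR2T genes, 1 had a peak of both replicates within 1 kb of a gene end for each target, and that was OR2T1 itself, chosen for it. The other 14 had none. Over all protein-coding genes the shares were 0.0654% for ENO1, 10.5% for H4K12la and 8.18% for HDAC1.

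At CCDC200 the 6 libraries placed their summits almost on the same base. They were at 43232135 in both ENO1 libraries and HDAC1 replicate 2, at 43232142 in H4K12la replicate 1 and HDAC1 replicate 1, and at 43232140 in H4K12la replicate 2. The span was 7 bp, which 25 of the 428 regions (5.84%) matched or undercut, against a median of 71.5 bp. TMEM216, with 117 bp, and OR2T1, with 213 bp, had 62.4% and 71.0% of the regions at or below their span. The ENO1 summits were 0 bp apart and the H4K12la summits 2 bp, and the ENO1 and H4K12la summits lay 5 to 7 bp from each other without overlap. The HDAC1 summits, 7 bp apart, coincided with ENO1 in 1 library and with H4K12la replicate 1 in the other.

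**Figure D3:**
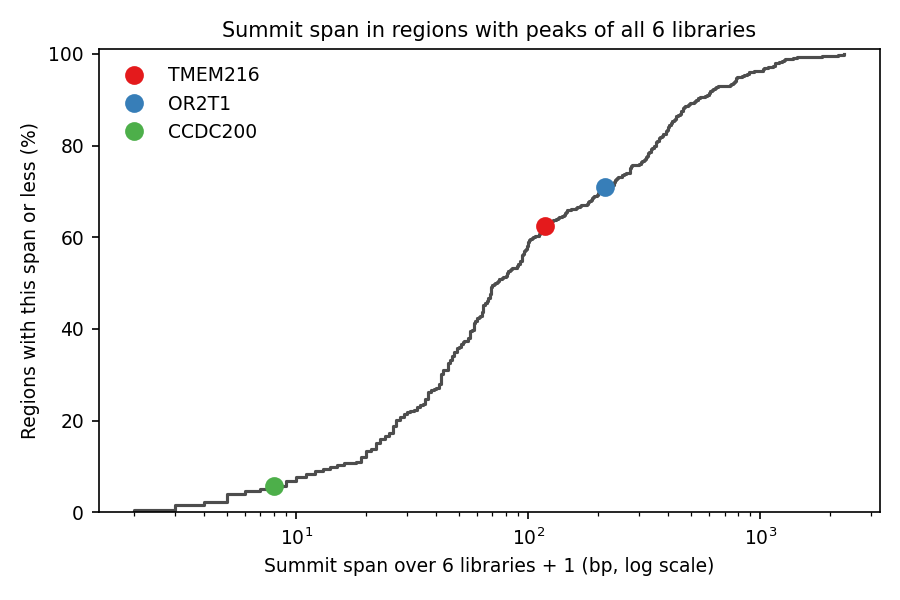
Share of the 428 regions with peaks of all 6 libraries (vertical axis, %) whose summits span no more than the distance on the horizontal axis (bp plus 1, log scale), with the 3 genes as points. CCDC200 (7 bp) lies in the lowest 5.84%, while TMEM216 (117 bp) and OR2T1 (213 bp) lie above the median of 71.5 bp.

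CCDC200 fold values were nearly level over the targets. ENO1 had 10.5 and 8.57, H4K12la 9.80 and 8.35, and HDAC1 9.25 and 9.56, and the ranges of all 3 overlapped. The peak ranked 217th and 265th in the ENO1 lists, 161st and 225th in the H4K12la lists and 312th and 328th in the HDAC1 lists. On the -log10 q scale the libraries spread more, with 41.6 and 37.2 in the ENO1 lists, 133 and 93.5 in the H4K12la lists, and 136 and 145 in the HDAC1 lists. ENO1 was lowest there and HDAC1 highest, without overlap, although H4K12la replicate 1 came within 3 units of HDAC1 replicate 1. ENO1 averaged 9.54 ± 1.38-fold, H4K12la 9.07 ± 1.03 and HDAC1 9.40 ± 0.219 (SD, n = 2 each).

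The ENO1 peaks at CCDC200 were narrower and sat inside the others. They ran from 43231822 to 43232547 and from 43231796 to 43232638, 726 and 843 bp wide. H4K12la peaks ran from 43231760 to 43232723 and from 43231767 to 43232747, 964 and 981 bp wide. HDAC1 peaks ran from 43231750 to 43232719 and from 43231755 to 43232742, 970 and 988 bp wide. Both ENO1 widths were below the other 4, and the ENO1 peaks also had the lowest -log10 q there. Part of this was seen at TMEM216, where the ENO1 peaks were also the narrowest, but at OR2T1 the narrowest peak was that of H4K12la replicate 1.

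CCDC200 was the only gene of the 3 with further peaks within 10 kb, 6 beside the main 6, all weak. H4K12la had a peak in both replicates across the facing ends of NBR1, an autophagy receptor gene, and TMEM106A (43211697 to 43212523 and 43211540 to 43212305, 3.83-fold and 3.80-fold, summits 43211937 and 43211832). It had another within TMEM106A in replicate 2 alone (43217099 to 43217815, 3.66-fold, summit 43217689). On the side of the snRNA genes, H4K12la replicate 2 (43235879 to 43236212, 2.39-fold, summit 43235962) and HDAC1 replicate 1 (43235815 to 43236182, 1.91-fold, summit 43236176) overlapped. HDAC1 replicate 2 alone had a peak at 43240751 to 43241059 (2.75-fold, summit 43240956), between the snRNA genes LOC124904135 and LOC124904136. Their -log10 q values were 6.73 and 7.24 at NBR1 and TMEM106A, 6.37, 5.26, 2.86 and 8.32, and their ranks by fold were 3332nd, 4696th, 5224th, 7735th, 5966th and 4691st. None of the 6 overlapped an ENO1 peak. By fold the peaks at NBR1 and TMEM106A had 41.05% and 39.6% of their lists below them, and the one within TMEM106A 32.8%. The 3 on the snRNA side were near the bottom, with 0.489%, 0.217% and 2.31% below.

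The summits of the main CCDC200 peak lay 866 to 873 bp from the start of that gene and 1648 to 1655 bp from RNU2-1 (43233790 to 43233977), over which no library had a peak. The 50 kb beyond the start held 9 annotated snRNA genes, and 10 of the 12 separate sites with a peak around CCDC200 lay on that side. A second site with all 6 libraries, 15.4 kb from the start and 784 bp from LOC124904137, had ENO1 at 7.32 and 6.15-fold, H4K12la at 7.75 and 8.84-fold, and HDAC1 at 8.33 and 8.39-fold, with summits within 25 bp. Another, 34.0 kb away, had 4.72 and 4.21, 3.76 and 3.90, and 3.91 and 4.38-fold in the same order, with summits spread over 486 bp. Peaks of all 6 libraries were thus not confined to the site beside CCDC200, though of these further sites only the one at 15.4 kb had close summits.

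HDAC1 stood out at a further site, which overlapped the snRNA gene LOC124904138 (43251829 to 43252019), 20.5 kb from the CCDC200 start. HDAC1 reached 7.78-fold and 8.27-fold there, H4K12la 3.31-fold and 4.37-fold and ENO1 replicate 2 3.98-fold, while ENO1 replicate 1 had no peak. The 5 summits were within 43 bp of each other. Both HDAC1 values lay above the other 3, each measured within its own library. LOC124904141, 47.0 kb away, was overlapped by HDAC1 peaks alone, of 2.47-fold and 2.09-fold. The snRNA genes named LOC here have 191 bp each, apart from LOC124904146 with 192, against 188 bp for RNU2-1, and if they are near-identical copies, reads may be shared between them, which was not tested.

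**Figure D4:**
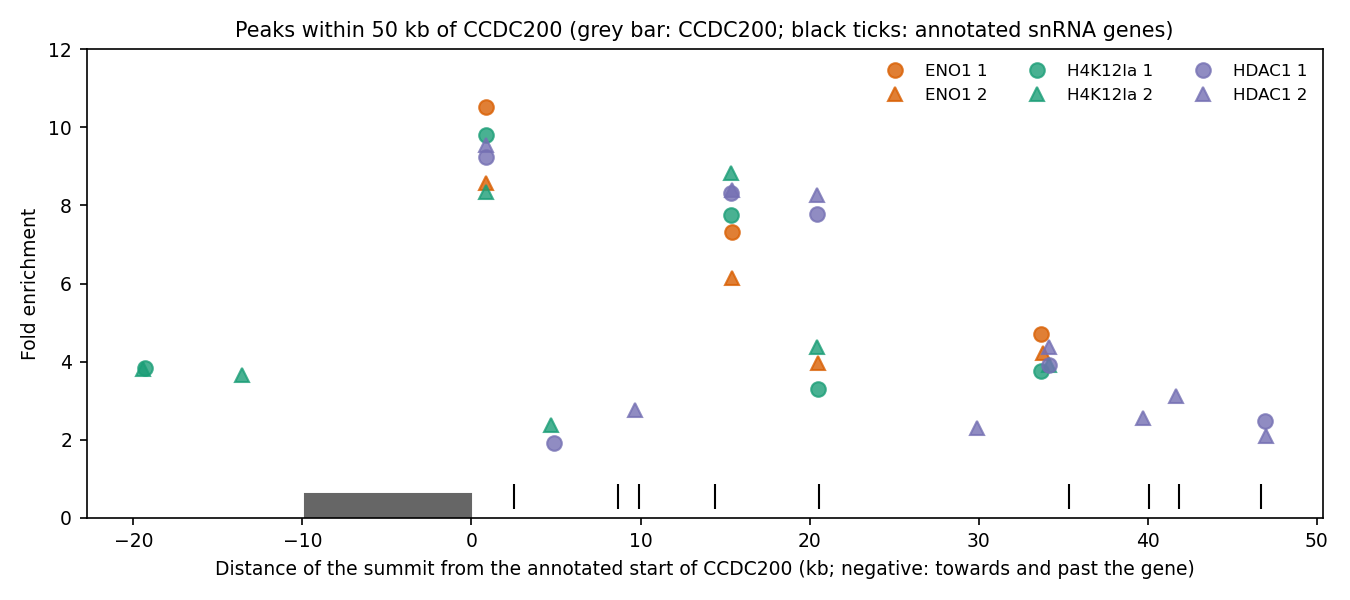
Fold enrichment of every peak within 50 kb of CCDC200 (vertical axis) by distance of its summit from the annotated CCDC200 start in kb, coloured by target, with circles for replicate 1 and triangles for replicate 2, CCDC200 as a grey bar and snRNA genes as ticks. All 6 libraries meet beside the start and again at 15.4 kb and 34.0 kb, and at 20.5 kb the HDAC1 peaks (7.78 and 8.27) lie above the others.

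No antibody stood out at all 3 genes by the strength of its peak. HDAC1 had the highest mean fold at TMEM216 and OR2T1, 6.03 and 2.31 above the mean of the other 4 libraries, and at CCDC200 this difference was 0.0956. At TMEM216 it was 3.39 without replicate 1, 8.68 without replicate 2 and 3.01 without ENO1 replicate 1 alone, and at OR2T1 it was 1.51 without H4K12la replicate 1. At CCDC200 it was 1.10 without replicate 1 and turned to -0.909 without replicate 2. At TMEM216 both HDAC1 values lay above the other 4, by less than 1 unit over ENO1 replicate 2, and at OR2T1 H4K12la replicate 2 lay between them. Fold is measured within each library and not scaled between libraries, so these differences describe lists and not amounts of protein or mark on the DNA.

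By percentile ENO1 was lowest at all 3 genes. At OR2T1 86.9% and 82.2% of the ENO1 peaks lay below, against 94.0% to 98.6% in the other 4 lists, and at CCDC200 88.1% and 81.0% against 93.2% to 97.2%. At TMEM216 the other 4 lists had at least 99.8% below. Both H4K12la percentiles lay above both of HDAC1 at TMEM216 (99.86% and 99.90% against 99.85% and 99.81%). The same held at CCDC200 (97.2% and 97.1% against 94.8% and 93.2%), while at OR2T1 the 2 targets overlapped. By -log10 q H4K12la lay above HDAC1 at TMEM216 (296 and 306 against 239 and 238), and HDAC1 lay above H4K12la at OR2T1 and CCDC200. Both ENO1 percentiles were below the other 4 in 318 of the 428 regions (74.3%), so this was the common case. The ENO1 lists are also the shortest, with 1818 and 1395 peaks against 4802 to 7773, and by rank number the ENO1 values fell within the range of the other lists at OR2T1 and CCDC200.

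**Figure D5:**
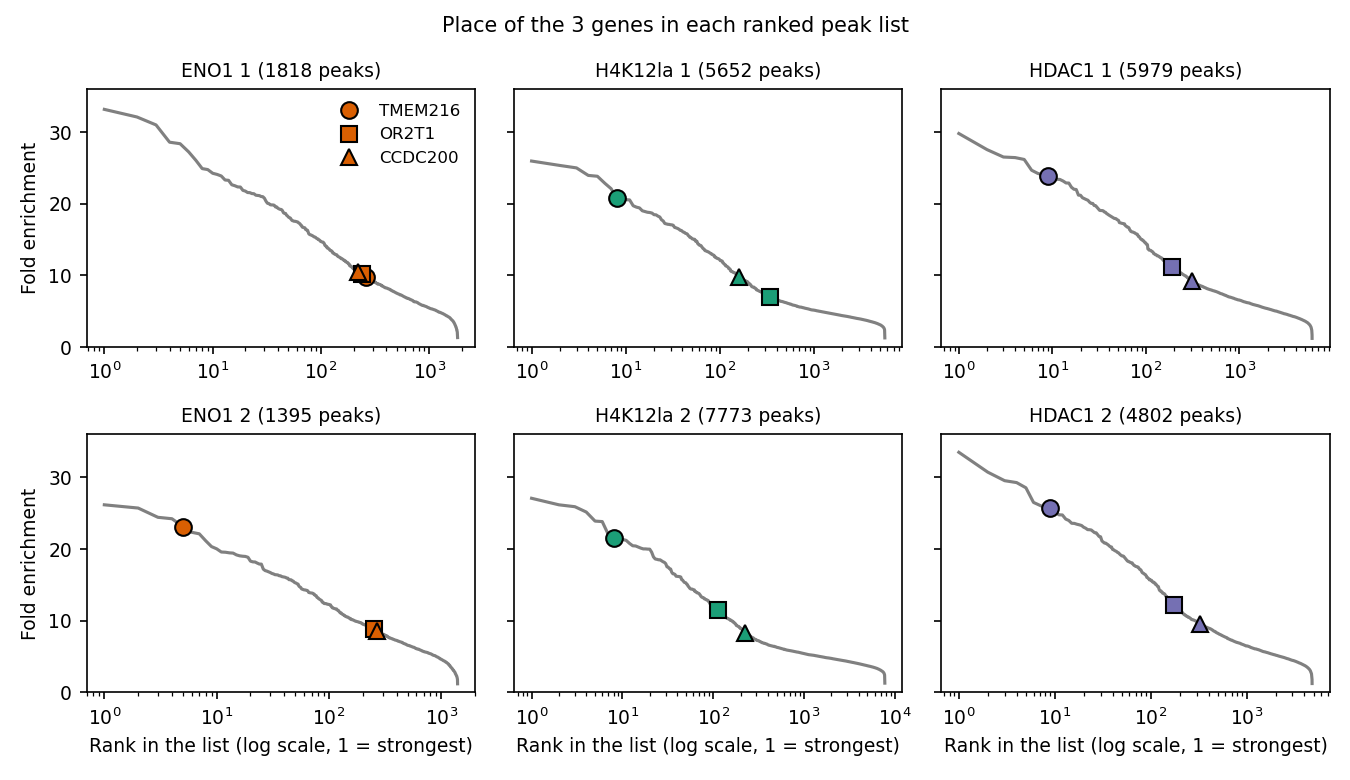
Fold enrichment of all peaks of each library (grey curve) by rank on a log scale, with the 3 genes marked. TMEM216 lies among the 10 strongest peaks of every list except ENO1 replicate 1, where it is 261st, and OR2T1 and CCDC200 lie between ranks 112 and 340 in all 6.

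The other 3 genes with gene-end peaks of all 6 libraries lay well below those chosen. The lowest fold over the 6 libraries was 9.72 at TMEM216, 8.35 at CCDC200 and 7.02 at OR2T1, and 3.43 at TAF11L3, 3.17 at LOC107987020 and 2.91 at NPIPB5. The choice thus fell in a wide gap. Among the 428 regions with all 6 libraries, TMEM216 was 59th, OR2T1 133rd and CCDC200 139th by mean percentile, so the 3 were not the strongest of the shared places. Those regions were not limited to gene ends. Many lay in close runs, as on chromosome 10 between 40019568 and 41911362, and may not be like the places beside genes, which was not tested.

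Within 10 kb of the whole gene, 77 of 19866 genes (0.388%) had a peak of all 6 libraries. Likeness was measured over the 6 libraries as the distance between percentiles of the strongest peak, in percentage points. The nearest to TMEM216 among the 74 others were ACSL3, a fatty acyl-CoA synthetase gene (distance 8.81, folds 14.7 to 30.7), LRRC27 (9.77, folds 14.0 to 17.6) and GPI, a glycolytic enzyme gene (10.9, folds 12.3 to 14.2). PTPRN2, a gene of secretory granules, and TTLL8, whose family modifies tubulin, were nearest to both OR2T1 (4.88 and 6.50) and CCDC200 (3.97 and 4.70), with folds of 7.54 to 11.7 and 7.99 to 11.3. Next came DGCR6 for OR2T1 (8.06) and RPTOR, of the mTOR kinase complex, for CCDC200 (7.54). Summits spanned 24 bp at LRRC27, 20 bp at GPI, 48 bp at PTPRN2 and 13 bp at TTLL8, below the median of 71.5 bp over the 428 regions. At DGCR6 (134 bp), RPTOR (180 bp) and ACSL3 (335 bp) they spanned more than that.

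Some other transition zone genes carried H4K12la or HDAC1. None carried ENO1, which was rare at the ends of all protein-coding genes, so its absence here does not set these genes apart. Of 21 genes of this structure, TMEM216, chosen for it, had ENO1 in both replicates within 1 kb of a gene end. Of the other 20, 0 had ENO1 (0.0654% of all protein-coding genes did), 5 had H4K12la (25%, against 10.5% of all protein-coding genes) and 4 had HDAC1 (20%, against 8.18%). CEP290, a scaffold of the transition zone, had H4K12la at 4.92 and 5.27-fold and HDAC1 at 8.08 and 8.28-fold. RPGRIP1L, which anchors the zone's protein modules, also had both, at 3.27 and 4.17-fold and 4.23 and 4.78-fold. H4K12la in both replicates, but not HDAC1 in both, was found at TMEM237 (5.43 and 5.65-fold), AHI1 (3.68 and 4.66-fold) and MKS1 (4.43 and 5.02-fold). HDAC1 replicate 1 did have a gene-end peak at TMEM237 (4.34-fold) and AHI1 (3.87-fold). HDAC1 in both, but not H4K12la in both, was found at B9D1 (5.79 and 6.36-fold) and TCTN3 (4.43 and 4.58-fold). H4K12la replicate 2 did have one at TCTN3 (5.10-fold). MKS1 and B9D1 had no gene-end peak of the other target in either replicate. TMEM138, the neighbour of TMEM216 that acts at the same site, had no gene-end peak in any list.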

How the data were processed

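CUT&Tag libraries of ENO1, H4K12la and HDAC1 in HepG2 cells, 2 replicates each, were grouped by the titles in the labels. FastQC, Bowtie2, MACS2, deepTools and hg38 are named in the submitters' processing notes; settings, versions and whether a control was used: not given in the sources used here. Each deposited list holds the narrow peaks of 1 library (1395 to 7773 peaks). Fold enrichment is the authors' ratio of summit signal over background within a library. The -log10 q is the authors' too; the lowest value in each list is 2.00 to 2.09. Depth is unknown, so a place without a peak may hold signal.

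Peaks with at least 1 base within 10 kb of a gene were listed with Python 3.11.15 and pandas 2.3.3. Genes came from RefSeq (GRCh38.p14, 718 entries on other sequences left out). Ranks were by fold over the whole list. Regions were merged overlapping peaks, with unplaced sequences left out; with several peaks of a library the strongest was used. No test was run, since fold chose the genes. Simulated peaks were used to test the calls of gene-end peaks and the summit spans of merged regions alone. The genes and lists were chosen with earlier results of these data known. Named were the 3 genes, those within 10 kb of their peaks, occupied list members, the 3 genes nearest in percentiles, and genes with gene-end peaks of all libraries; sites to 50 kb were named as the planned wider window.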

Additional observations from a re-analysis of the deposited data

How the results depend on the processing

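Of 105 alternative values, 86 were counted as unchanged. This meant within the replicate spread, or for counts within a factor of 1.5. For HDAC1 minus the other libraries on another scale (percentile by -log10 q, or fold over the list median), it meant only the same direction. At CCDC200, for example, 0.0956 by fold stood beside 7.71 percentage points by -log10 q. Peak counts with 1 library left out could not change by more than a factor of 1.5. No library held more than 1 of the 6 peaks at TMEM216 or OR2T1, or 4 of the 12 at CCDC200. The CCDC200 peak count of 12 was 6 within 1 kb of the gene and 34 within 50 kb. Peak midpoints in place of summits gave spans of 34, 24 and 72.5 bp for TMEM216, OR2T1 and CCDC200, against 117, 213 and 7 bp, so the order of the genes depends on the position used. Leaving out 1 library gave spans of 93 to 117, 67 to 213 and 7 bp, and both low values came without H4K12la replicate 1. The median percentile was 95.2 for OR2T1 and 94.0 for CCDC200 by fold, 90.3 and 97.9 by -log10 q, and 84.7 and 82.4 with the strongest 1395 peaks of each list, a setting added after the data were seen. HDAC1 minus the other libraries at CCDC200 ran from -0.909 without replicate 2 to 1.10 without replicate 1, and was -0.151, -0.224 and -0.0592 without replicate 2 of ENO1, H4K12la or HDAC1 alone (single libraries left out as a setting added after the data were seen). At TMEM216 the range was 3.01 to 8.68 and at OR2T1 1.51 to 3.02, with no change of direction. Genes with gene-end peaks of all 6 libraries numbered 6, and 2 (OR2T1 and TAF11L3) within 500 bp, where transition zone genes with ENO1 fell from 1 to 0; at -log10 q of at least 5 those with HDAC1 fell from 5 to 3. The cause of these changes was not tested beyond what each setting removes. No paired analysis was possible because the results come from no test; the values without replicate 1 or 2 are those of the other number alone. Depth is unknown, and peaks below the calling threshold are not in the lists.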
